A study of Homo sapiens with 8 samples.

Results

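The genes of homologous recombination and of the Fanconi anemia pathway were described across 8 microarrays of 2 ovarian cancer cell lines, OVSAHO and KURAMOCHI, each cultured with simvastatin or with L-778123. The 41 genes were chosen by name for their role in these pathways, with earlier results of these data known. The part of that choice in their counts was not tested. All 41 had a probe that passed the filter on dim probes, out of 16956 named genes that did. Simvastatin is a statin, an inhibitor of HMG-CoA reductase, the enzyme that makes mevalonate for cholesterol and for the lipid groups of prenylated proteins. L-778123 inhibits farnesyltransferase and geranylgeranyl transferase I, the enzymes that attach these lipid groups to proteins. Each of the 4 groups, OVSAHO with simvastatin, OVSAHO with L-778123, KURAMOCHI with simvastatin and KURAMOCHI with L-778123, had 2 arrays. The study asked with this comparison what a statin changes in the cells beyond the loss of protein prenylation. The dose and the time of incubation of the array samples are not given in the sources used here, and the arrays analysed hold no cells without a drug or with its solvent alone. A gene that was lower with simvastatin than with L-778123 was therefore equally a gene that was higher with L-778123, and a change from untreated cells was not measured. The labels do not say whether the arrays of a group came from separate cultures, so the p-values measure only the spread between these arrays, which may be technical.

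Homologous recombination repairs a double-strand break or a stalled replication fork by copying the intact sister chromatid. Nucleases first resect the ends of the break, the BRCA1, PALB2 and BRCA2 proteins then load a recombinase on the exposed strand, and helicases and nucleases take apart the joined molecules after the copying. The Fanconi anemia pathway acts on crosslinks between the strands: a core complex attaches ubiquitin to FANCD2 and FANCI, which opens the way for nucleases and for recombination. Loss of BRCA1 or BRCA2 function is known in many serous ovarian carcinomas and makes cells sensitive to platinum drugs and to inhibitors of PARP1. Many of these genes are transcribed mainly while cells replicate their DNA. The genotype of the BRCA1 and BRCA2 genes in the 2 cell lines was not analysed here.

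The level of a gene is given here as its log2 intensity minus the log2 of the array's 75th percentile of intensity, so that a level of 0 is a signal at that percentile, and it does not compare the amount of RNA of different genes. Signals well above background were found for 51.8% to 57.5% of the probes on each array, and no spot was saturated. Arrays of the same group correlated at a Pearson r of 0.995 to 0.996, and arrays of different groups at 0.865 to 0.984. All 8 arrays lay on 1 slide, on which each group had its own positions, so position and group cannot be told apart. All 10 markers of serous and epithelial ovarian cancer, among them PAX8, WT1, MUC16 and EPCAM, were well above background on all 4 arrays of each line. Of the 6 fibroblast markers, 3 (COL1A2, DCN and LUM) were below background on all 8 arrays, COL1A1 and COL3A1 were above it on the 4 KURAMOCHI arrays and on no OVSAHO array, and PDGFRB on 2 arrays of each line. PTPRC and CD14 of the leukocyte markers and CDH5 and VWF of the endothelial markers were above background on all 8 arrays, PECAM1 was on none, and CD3E was on 1. VWF differed by -3.30 on the log2 scale between simvastatin and L-778123 in OVSAHO (adjusted p = 2.43e-05). The summed level of the endothelial markers, in multiples of the 75th percentile, was accordingly 0.213 to 0.252 in OVSAHO with simvastatin, 0.839 to 0.882 in OVSAHO with L-778123 and 0.544 to 0.728 in KURAMOCHI, and the part of such cells or genes in the results was not tested. The arrays measured RNA of whole cultures, in which fewer cells of a kind and less RNA per cell cannot be told apart.

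In OVSAHO, 22 of the 41 genes were called lower with simvastatin than with L-778123, and none was called higher. A gene was called where the adjusted p of limma's test was below 0.05 and the difference at least 2-fold. Of all 16956 genes, 5.88% were called lower and 5.69% higher in this comparison. In KURAMOCHI, 11 of the 41 were called lower and none higher, against 2.94% and 2.44% of all genes. By the adjusted p alone, 35 members were lower and 1 was higher in OVSAHO, where 27.5% of all genes were lower. In KURAMOCHI 28 members were lower and none was higher by the adjusted p alone, where 18.4% of all genes were lower. The median log2 difference of the members was -1.20 in OVSAHO and -0.64 in KURAMOCHI, and that of all genes was 0.01 in both lines.

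The 11 genes called in KURAMOCHI were all called in OVSAHO too: BRCA1, BARD1, BRCA2, RAD51AP1, RAD54L, MND1, EXO1, BLM, BRIP1, CHEK1 and POLQ. A further 11 were called in OVSAHO and not in KURAMOCHI, namely XRCC2, XRCC3, RAD54B, FANCA, FANCM, UBE2T, FANCD2, FANCI, DNA2, EME1 and CHEK2. The remaining 19 were called in neither line. By the adjusted p alone, 27 members were lower in both lines, a count whose share over all genes was not worked out. Both simvastatin arrays lay below both L-778123 arrays for 37 members in OVSAHO and for 31 in KURAMOCHI. The share of all genes that split in this way was not worked out either. The 2 arrays of a group differed by a median of 0.07 on the log2 scale over the members. The calls that depended on the processing were few in OVSAHO, where those of BRCA2, BRIP1, CHEK1 and DNA2 were lost after another background correction, normexp, and that of RAD54B with the median over its probes. In KURAMOCHI, RAD54L, BLM and CHEK1 lay at the 2-fold threshold and lost the call under several alternatives, normexp among them. BRCA2 and RAD51AP1 lost it after normexp, and BARD1 without the first KURAMOCHI array with L-778123. Calls were gained by FANCA in KURAMOCHI without the first array of either drug, and by FANCB in OVSAHO, at -1.02, without the second array with simvastatin.

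**Figure D1:**
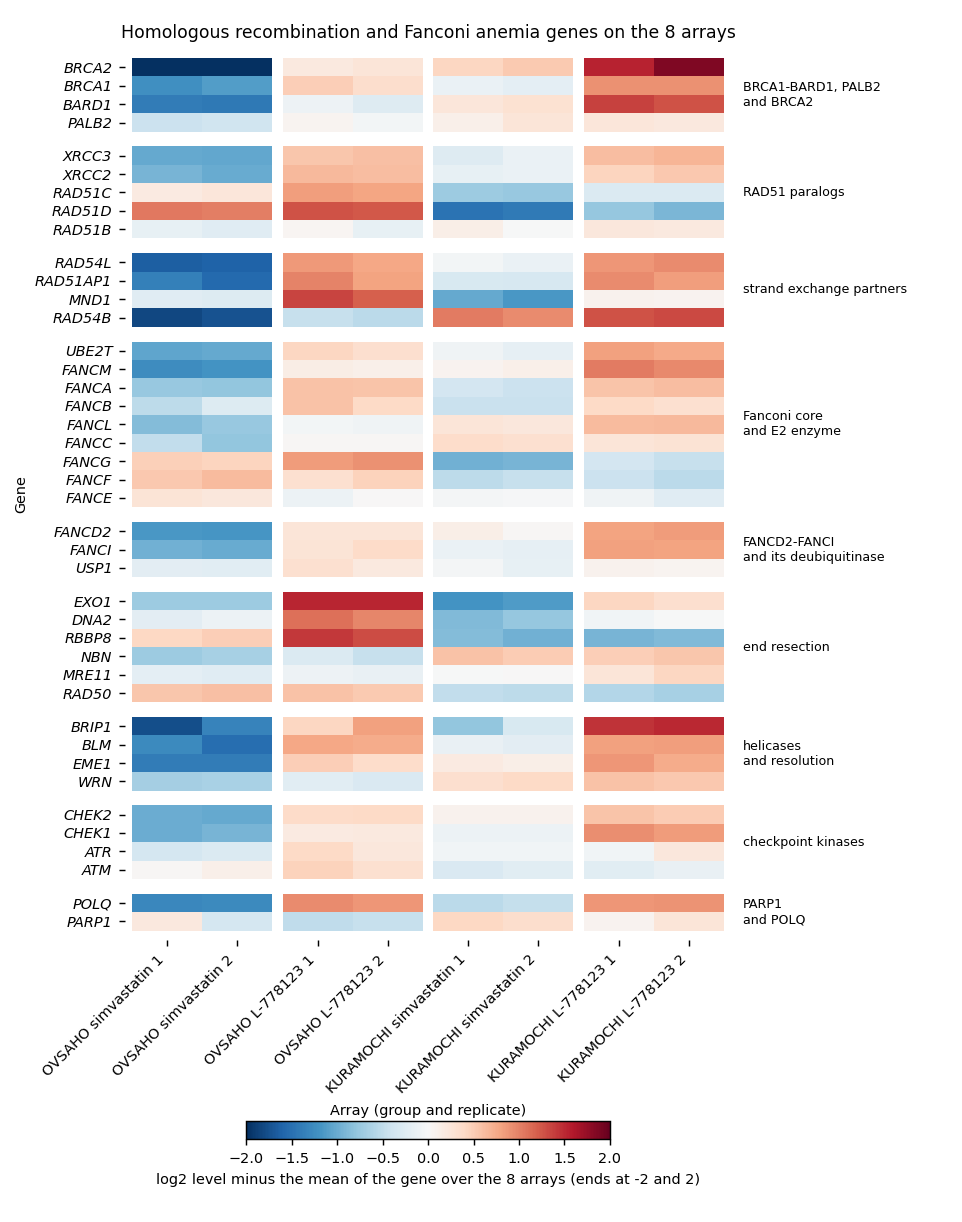
Levels of the 41 genes on the 8 arrays, each as the log2 level minus the mean of that gene over the arrays, with the genes in rows by role and the arrays in columns by group. Blue marks a level below the mean of the gene and red a level above it. The darkest blue is that of BRCA2 on both OVSAHO arrays with simvastatin, whose levels were -5.45 and -5.43, and RAD51D and RAD50 show a contrast between the cell lines that is wider than that between the drugs.

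**Figure D2:**
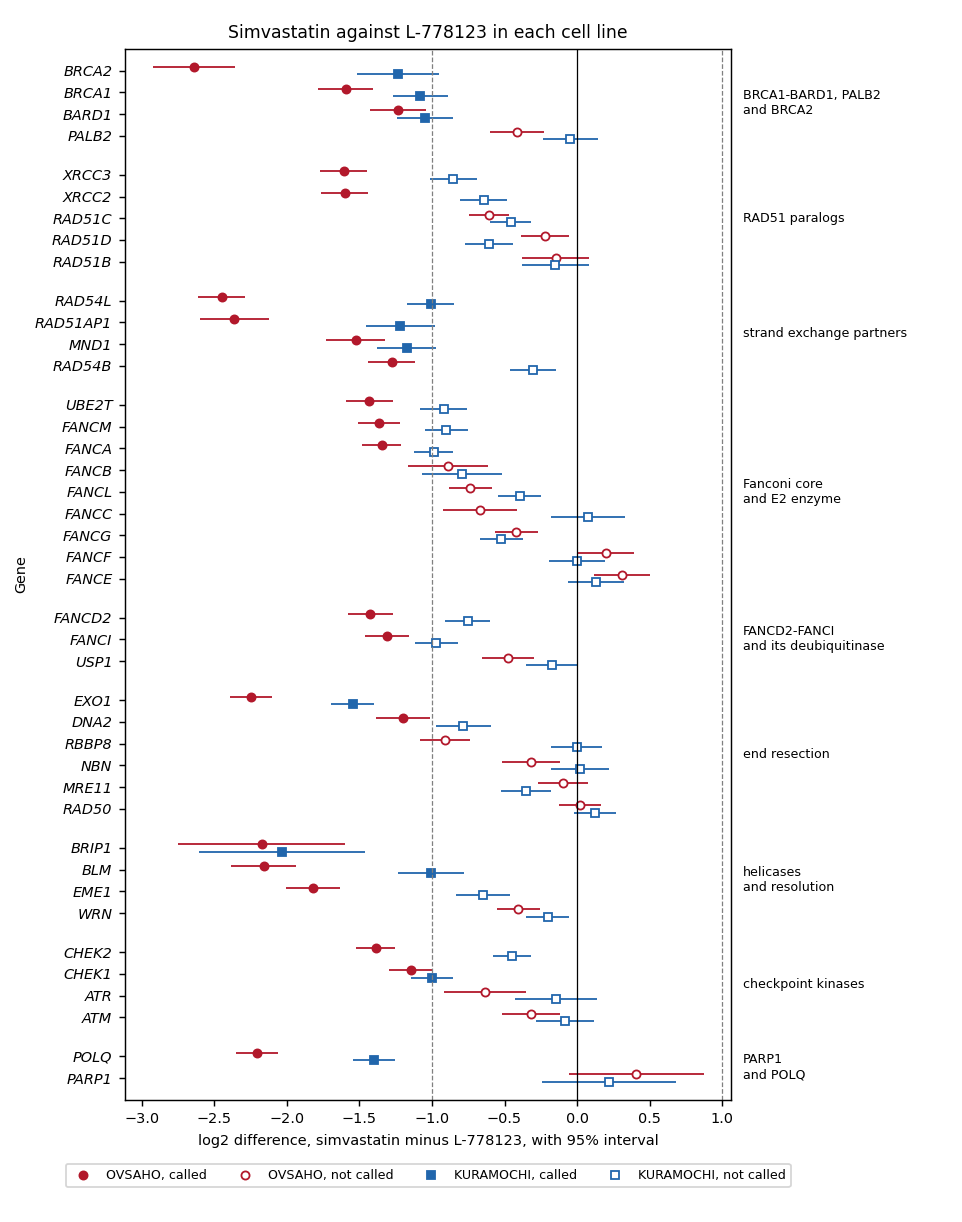
Difference between simvastatin and L-778123 for each gene (log2, simvastatin minus L-778123) in OVSAHO (circles) and KURAMOCHI (squares), with 95% intervals from the limma fit over 2 arrays per group. Filled symbols were called, and dashed lines mark a 2-fold difference. The 22 filled circles and 11 filled squares all lie to the left of the left dashed line or on it, and no symbol lies beyond the right one.

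BRCA1, BARD1 and BRCA2 were called lower with simvastatin in both lines, while PALB2 was not called in either. BRCA1 and BARD1 form the ubiquitin ligase that acts at broken DNA, PALB2 bridges BRCA1 to BRCA2, and BRCA2 carries the recombinase to the break. BRCA1 levels were -0.20 and -0.08 on the OVSAHO arrays with simvastatin, 1.53 and 1.39 on those with L-778123, 0.90 and 0.84 on the KURAMOCHI arrays with simvastatin and 1.96 and 1.95 on those with L-778123. The difference was -1.60 in OVSAHO (SE 0.08, adjusted p = 7.06e-05) and -1.08 in KURAMOCHI (SE 0.08, adjusted p = 0.000572), and in both lines the simvastatin arrays lay below the L-778123 arrays. BARD1 levels were 0.17 and 0.15 on the OVSAHO arrays with simvastatin, 1.47 and 1.31 on those with L-778123, 1.81 and 1.89 on the KURAMOCHI arrays with simvastatin and 2.94 and 2.84 on those with L-778123. These were differences of -1.23 (SE 0.08, adjusted p = 0.000152) and -1.05 (SE 0.08, adjusted p = 0.000654), again with no overlap of the groups. PALB2, the bridge between them, moved least of these 4 genes in both lines. PALB2 levels were -0.64 and -0.60 on the OVSAHO arrays with simvastatin, -0.15 and -0.27 on those with L-778123, -0.10 and 0.05 on the KURAMOCHI arrays with simvastatin and 0.03 and 0.01 on those with L-778123. Its difference was -0.41 in OVSAHO (SE 0.08, adjusted p = 0.00681) and -0.05 in KURAMOCHI, with an interval of -0.23 to 0.14.

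BRCA2 levels were -5.45 and -5.43 on the OVSAHO arrays with simvastatin, -2.83 and -2.77 on those with L-778123, -2.60 and -2.51 on the KURAMOCHI arrays with simvastatin and -1.48 and -1.16 on those with L-778123. Both OVSAHO arrays with simvastatin were not well above background for BRCA2. The level there is uncertain, and limma's test in OVSAHO (adjusted p = 5.31e-05) used it as measured. With each dim array set at the lowest signal of its probes well above background, BRCA2 was 3.74-fold lower with simvastatin in OVSAHO. This is not a strict bound, since a probe not well above background can lie above that lowest signal. In KURAMOCHI, where all 4 arrays were above background, the difference was -1.23 (SE 0.11, adjusted p = 0.00125). BRCA2 was a dim probe in every group, and after normexp, whose offset by construction draws dim probes together, the differences were -0.52 and -0.73 and neither passed the 2-fold threshold.

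Of the 5 paralogs of the recombinase, which help it to assemble on the exposed strand, XRCC2 and XRCC3 were called lower in OVSAHO and none was called in KURAMOCHI. XRCC3 levels were 1.10 and 1.09 on the OVSAHO arrays with simvastatin, 2.68 and 2.73 on those with L-778123, 1.86 and 1.98 on the KURAMOCHI arrays with simvastatin and 2.74 and 2.81 on those with L-778123. The difference was -1.61 in OVSAHO (SE 0.07, adjusted p = 4.86e-05) and -0.85 in KURAMOCHI (SE 0.07, adjusted p = 0.000737). XRCC2 differed by -1.60 (SE 0.07, adjusted p = 4.7e-05) and -0.64 (SE 0.07, adjusted p = 0.00166). For both genes the simvastatin arrays lay below the L-778123 arrays in each line. RAD51C passed the test as lower by less than 2-fold, with differences of -0.60 and -0.46 (adjusted p = 0.000562 and 0.00301). RAD51B had differences of -0.15 and -0.15 that did not pass the test. A second probe of it gave -1.19 in OVSAHO (adjusted p = 0.000326) and -1.12 in KURAMOCHI (adjusted p = 0.000905). That probe was well above background on only 2 of the 8 arrays, so its values rest mostly on dim signal. RAD51D differed by -0.22 and -0.61 (adjusted p = 0.0373 and 0.00214), while its other 2 probes gave values between -0.11 and 0.12 that did not pass the test.

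The 4 genes whose proteins work beside the recombinase during strand exchange were all called lower in OVSAHO, and 3 of them in KURAMOCHI. RAD54L is a motor protein that remodels DNA for the strand exchange, and RAD54B is its relative. RAD54L levels were 0.34 and 0.37 on the OVSAHO arrays with simvastatin, 2.86 and 2.76 on those with L-778123, 1.94 and 1.86 on the KURAMOCHI arrays with simvastatin and 2.88 and 2.94 on those with L-778123. The difference was -2.45, or 5.46-fold, in OVSAHO (SE 0.06, adjusted p = 2.01e-05) and -1.01 in KURAMOCHI (SE 0.06, adjusted p = 0.00044). RAD51AP1 levels were -2.27 and -2.44 on the OVSAHO arrays with simvastatin, 0.10 and -0.09 on those with L-778123, -1.22 and -1.24 on the KURAMOCHI arrays with simvastatin and 0.04 and -0.06 on those with L-778123. RAD51AP1, which binds the recombinase and stimulates the joining of strands, thus differed by -2.36 (SE 0.10, adjusted p = 4.76e-05) and -1.22 (SE 0.10, adjusted p = 0.000787). In each line the 4 arrays of both genes split by drug without overlap. RAD54B levels were 0.23 and 0.30 on the OVSAHO arrays with simvastatin, 1.58 and 1.51 on those with L-778123, 3.08 and 2.99 on the KURAMOCHI arrays with simvastatin and 3.32 and 3.36 on those with L-778123. RAD54B differed by -1.28 (SE 0.06, adjusted p = 8.09e-05) in OVSAHO and by -0.31 (SE 0.06, adjusted p = 0.0182) in KURAMOCHI. The call in OVSAHO rests on the brighter of its 2 probes, since the other gave -0.60 and the median of both -0.94. MND1, known best from meiotic recombination, differed by -1.53 and -1.17 (adjusted p = 9.46e-05 and 0.00055).

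Of the Fanconi core complex and its E2 enzyme, 3 of 9 genes were called lower in OVSAHO and none in KURAMOCHI. These were FANCA, a large subunit of the core, FANCM, the translocase that brings the core to DNA, and UBE2T, the E2 enzyme that hands ubiquitin to the ligase subunit FANCL. FANCA levels were -0.91 and -0.94 on the OVSAHO arrays with simvastatin, 0.43 and 0.42 on those with L-778123, -0.52 and -0.58 on the KURAMOCHI arrays with simvastatin and 0.41 and 0.46 on those with L-778123. The difference was -1.35 in OVSAHO (SE 0.05, adjusted p = 4.62e-05) and -0.99 in KURAMOCHI (SE 0.05, adjusted p = 0.000304), the latter just under 2-fold. Without the first KURAMOCHI array of either drug FANCA passed 2-fold there, at -1.02 and -1.01, and its other 2 probes gave -1.09 and -0.72 (adjusted p = 0.00126 and 0.00242). FANCM levels were -0.22 and -0.15 on the OVSAHO arrays with simvastatin, 1.19 and 1.17 on those with L-778123, 1.12 and 1.17 on the KURAMOCHI arrays with simvastatin and 2.08 and 2.01 on those with L-778123. FANCM differed by -1.37 (SE 0.06, adjusted p = 5.37e-05) and -0.90 (SE 0.06, adjusted p = 0.000465). UBE2T differed by -1.43 (SE 0.07, adjusted p = 6.28e-05) and -0.92 (SE 0.07, adjusted p = 0.000586). The other core subunits were not called. FANCB, FANCL and FANCG passed the test and were lower in both lines, at -0.89, -0.74 and -0.42 in OVSAHO and at -0.79, -0.40 and -0.52 in KURAMOCHI. FANCC was lower in OVSAHO, at -0.67 (adjusted p = 0.00352), and had a value of 0.07 with an interval of -0.18 to 0.33 in KURAMOCHI. Its second, dimmer probe gave -1.03 in OVSAHO (adjusted p = 0.000574) and -0.74 in KURAMOCHI (adjusted p = 0.0036). Read by the brightest probe of each gene, FANCE was the only member that passed the test as higher with simvastatin, by 0.31 in OVSAHO (adjusted p = 0.0214), and its value in KURAMOCHI was 0.13. FANCF did not pass the test in either line, with intervals of 0.01 to 0.39 in OVSAHO and -0.20 to 0.19 in KURAMOCHI. Its second probe, of nearly the same brightness, was higher in OVSAHO, by 0.27 (adjusted p = 0.0143), and gave 0.19 in KURAMOCHI (adjusted p = 0.0659).

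FANCD2 and FANCI, the pair that the core complex marks with ubiquitin, were called lower in OVSAHO and lay under the 2-fold threshold in KURAMOCHI. FANCD2 levels were -1.22 and -1.24 on the OVSAHO arrays with simvastatin, 0.20 and 0.19 on those with L-778123, 0.08 and -0.04 on the KURAMOCHI arrays with simvastatin and 0.75 and 0.79 on those with L-778123. The difference was -1.43 in OVSAHO (SE 0.06, adjusted p = 5.52e-05) and -0.75 in KURAMOCHI (SE 0.06, adjusted p = 0.000895). A second probe of FANCD2, above background on all 8 arrays, was lower as well, at -1.86 in OVSAHO and -0.97 in KURAMOCHI. The last of its probes was well above background on only 6 arrays. FANCI differed by -1.31 (SE 0.06, adjusted p = 6.28e-05) and -0.97 (SE 0.06, adjusted p = 0.000398). USP1, the enzyme that removes the ubiquitin again, differed by -0.48 (adjusted p = 0.00322) and by -0.17, which did not pass the test.

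The 6 genes of end resection split by protein. EXO1 and DNA2, the long-range nucleases, were called lower in OVSAHO, whereas MRE11, RAD50 and NBN, which form the complex that first binds the ends, were not called in either line. EXO1 levels were 0.06 and 0.05 on the OVSAHO arrays with simvastatin, 2.30 and 2.30 on those with L-778123, -0.41 and -0.36 on the KURAMOCHI arrays with simvastatin and 1.21 and 1.11 on those with L-778123. EXO1 thus differed by -2.25 (SE 0.06, adjusted p = 2.01e-05) in OVSAHO and -1.55 (SE 0.06, adjusted p = 0.000148) in KURAMOCHI, and it ranked among the 5 largest changes in both lines. DNA2 differed by -1.20 (SE 0.08, adjusted p = 0.000152) and -0.78 (SE 0.08, adjusted p = 0.00144). RBBP8, which encodes CtIP, the partner that switches on the MRE11 nuclease, was lower in OVSAHO, at -0.91 (adjusted p = 0.00031), and its interval in KURAMOCHI was -0.18 to 0.17. Of MRE11, RAD50 and NBN, the values that passed the adjusted p were those of NBN in OVSAHO, -0.32 (adjusted p = 0.0219), and MRE11 in KURAMOCHI, -0.35 (adjusted p = 0.0152). The intervals of RAD50 were -0.12 to 0.17 in OVSAHO and -0.02 to 0.27 in KURAMOCHI.

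Among the helicases and the resolution enzymes, BLM and BRIP1 were called lower in both lines and EME1 in OVSAHO. BLM dissolves joined molecules without exchange of the arms, BRIP1 is the helicase that binds BRCA1, and EME1 is the partner of a nuclease that cuts such molecules. BLM levels were 0.10 and -0.15 on the OVSAHO arrays with simvastatin, 2.15 and 2.12 on those with L-778123, 1.24 and 1.17 on the KURAMOCHI arrays with simvastatin and 2.20 and 2.22 on those with L-778123. The difference was -2.16 (SE 0.09, adjusted p = 5.13e-05) in OVSAHO and -1.01 (SE 0.09, adjusted p = 0.00119) in KURAMOCHI, with no overlap of the groups in either line. EME1 levels were -0.75 and -0.73 on the OVSAHO arrays with simvastatin, 1.15 and 1.02 on those with L-778123, 0.84 and 0.80 on the KURAMOCHI arrays with simvastatin and 1.54 and 1.40 on those with L-778123. EME1 differed by -1.82 (SE 0.08, adjusted p = 4.86e-05) and -0.65 (SE 0.08, adjusted p = 0.00254). BRIP1 levels were -4.65 and -4.21 on the OVSAHO arrays with simvastatin, -2.45 and -2.06 on those with L-778123, -3.67 and -3.19 on the KURAMOCHI arrays with simvastatin and -1.43 and -1.37 on those with L-778123. BRIP1 was a dim probe, above background on only 1 of the 2 OVSAHO arrays with simvastatin, and its arrays differed most within groups of the members called. Its differences were -2.17 (SE 0.23, adjusted p = 0.00094) and -2.03 (SE 0.23, adjusted p = 0.00245), the latter the largest of the members in KURAMOCHI, and after normexp the value in OVSAHO was -0.79. WRN, another helicase of the same family as BLM, was lower in OVSAHO, at -0.40 (adjusted p = 0.00317), and differed by -0.20 in KURAMOCHI, which did not pass the test.

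Of the 4 checkpoint kinases, CHEK1 was called lower in both lines and CHEK2 in OVSAHO. ATM and ATR sense breaks and exposed single strands and switch on CHEK2 and CHEK1. CHEK1 levels were -1.27 and -1.20 on the OVSAHO arrays with simvastatin, -0.09 and -0.08 on those with L-778123, -0.38 and -0.39 on the KURAMOCHI arrays with simvastatin and 0.66 and 0.57 on those with L-778123. The difference was -1.15 (SE 0.06, adjusted p = 8.44e-05) in OVSAHO. In KURAMOCHI it was -1.00 (SE 0.06, adjusted p = 0.000346), at the 2-fold threshold, and it fell short of it, at -0.99, in the table of the authors and after quantile normalization. CHEK2 differed by -1.39 (SE 0.05, adjusted p = 4.07e-05) and -0.45 (SE 0.05, adjusted p = 0.00285). ATR levels were 3.05 and 3.12 on the OVSAHO arrays with simvastatin, 3.80 and 3.64 on those with L-778123, 3.34 and 3.34 on the KURAMOCHI arrays with simvastatin and 3.34 and 3.64 on those with L-778123. ATR differed by -0.64 (SE 0.11, adjusted p = 0.00623) in OVSAHO and by -0.15 in KURAMOCHI, with an interval of -0.43 to 0.13. A second, dimmer probe of ATR gave -0.66 in OVSAHO (adjusted p = 0.00154) and -0.39 in KURAMOCHI (adjusted p = 0.0169), so that the probes of this gene were on different sides of the threshold in KURAMOCHI. ATM levels were 1.03 and 1.13 on the OVSAHO arrays with simvastatin, 1.47 and 1.32 on those with L-778123, 0.70 and 0.78 on the KURAMOCHI arrays with simvastatin and 0.78 and 0.87 on those with L-778123. ATM differed by -0.32 (SE 0.08, adjusted p = 0.0216) in OVSAHO and by -0.08 in KURAMOCHI, with an interval of -0.28 to 0.12. A second, dimmer probe of ATM gave -0.33 in OVSAHO (adjusted p = 0.0122) and 0.30 in KURAMOCHI (adjusted p = 0.027).

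POLQ, the polymerase of the end joining that uses short homologies and on which cells without homologous recombination depend, was called lower in both lines. POLQ levels were -0.55 and -0.52 on the OVSAHO arrays with simvastatin, 1.71 and 1.64 on those with L-778123, 0.21 and 0.28 on the KURAMOCHI arrays with simvastatin and 1.64 and 1.66 on those with L-778123. The differences were -2.21, or 4.62-fold, in OVSAHO (SE 0.06, adjusted p = 2.01e-05) and -1.40, or 2.64-fold, in KURAMOCHI (SE 0.06, adjusted p = 0.000169). PARP1, the sensor of strand breaks and the target of the PARP inhibitors, was not called. PARP1 levels were 4.78 and 4.21 on the OVSAHO arrays with simvastatin, 4.06 and 4.11 on those with L-778123, 4.98 and 4.92 on the KURAMOCHI arrays with simvastatin and 4.63 and 4.83 on those with L-778123. The simvastatin arrays of OVSAHO differed from each other by 0.57, the widest gap between 2 arrays of a group over all members. The difference was 0.41 with an interval of -0.05 to 0.87 in OVSAHO and 0.22 with an interval of -0.24 to 0.68 in KURAMOCHI. A dimmer probe of PARP1 gave the opposite sign in OVSAHO, -0.43 (adjusted p = 0.0148), so that the direction for this gene was not settled.

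Sequence before the start of transcription was compared because many of these genes moved together. A window from 250 bases before to 50 bases after the start was found for 36 of the 41 members in RefSeq (GRCh38.p14). It was searched on both strands for the letters TTTCCCGC, TTTCGCGC, TTTGCCGC and TTTGGCGC, which E2F proteins bind, for TTTGAA and TTCGAA, the cell cycle homology letters, and for CCAAT, which NF-Y binds. None of these letters is part of another. The E2F letters were in the windows of 6 members (16.7%), EXO1, FANCA, FANCC, FANCD2, MND1 and XRCC2, against 5.96% of 13081 genes tested that had a window and 3.31% of all 35116 windows. The cell cycle homology letters were in those of 6 members (16.7%) against 16.2% of genes tested, and CCAAT in those of 16 (44.4%) against 42.3%. Of the members with a window, the E2F letters were in those of 2 of 11 called in both lines, of 3 of 8 called in OVSAHO and not in KURAMOCHI, and of 1 of 17 called in neither. CCAAT was in those of 6 of 11, 5 of 8 and 5 of 17. A match describes the letters and shows no binding.

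Printed here are the 250 bases before the start for FANCA and MND1, the called members with E2F letters that lie wholly before the start of transcription. Those of FANCD2 begin 2 bases before the start and run past it. Also printed are RAD54L, RAD51AP1, BLM and POLQ, 4 of the members with the widest differences in OVSAHO. These 4 hold CCAAT or the cell cycle homology letters and no E2F letters. The printed bases run 5′ to 3′ along the gene, and capitals mark the letters searched for, on either strand. FANCA lies at chr16:89816648-89816897 on the minus strand, with the E2F letters beginning 172 bases before the start. MND1 lies at chr4:153344438-153344687 on the plus strand, with the E2F letters 34 bases before the start. RAD54L lies at chr1:46247513-46247762 on the plus strand, RAD51AP1 at chr12:4538640-4538889 on the plus strand and BLM at chr15:90717096-90717345 on the plus strand, each with CCAAT or its complement in capitals. POLQ lies at chr3:121545989-121546238 on the minus strand, with the cell cycle homology letters in capitals.
FANCA: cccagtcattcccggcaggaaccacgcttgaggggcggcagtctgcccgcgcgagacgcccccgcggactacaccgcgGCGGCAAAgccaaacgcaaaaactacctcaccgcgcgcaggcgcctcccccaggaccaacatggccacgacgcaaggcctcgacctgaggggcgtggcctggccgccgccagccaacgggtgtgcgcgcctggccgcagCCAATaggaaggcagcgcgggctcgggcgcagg
MND1: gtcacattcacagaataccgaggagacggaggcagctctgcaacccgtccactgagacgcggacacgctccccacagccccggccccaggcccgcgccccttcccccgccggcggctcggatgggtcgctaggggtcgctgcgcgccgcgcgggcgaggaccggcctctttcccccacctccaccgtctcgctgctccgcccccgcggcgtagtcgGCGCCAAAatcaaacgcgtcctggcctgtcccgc
RAD54L: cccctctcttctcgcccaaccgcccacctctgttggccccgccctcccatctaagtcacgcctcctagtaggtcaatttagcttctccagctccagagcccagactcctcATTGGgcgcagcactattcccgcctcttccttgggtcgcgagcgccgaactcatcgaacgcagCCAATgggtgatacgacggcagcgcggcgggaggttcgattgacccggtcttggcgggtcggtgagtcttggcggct
RAD51AP1: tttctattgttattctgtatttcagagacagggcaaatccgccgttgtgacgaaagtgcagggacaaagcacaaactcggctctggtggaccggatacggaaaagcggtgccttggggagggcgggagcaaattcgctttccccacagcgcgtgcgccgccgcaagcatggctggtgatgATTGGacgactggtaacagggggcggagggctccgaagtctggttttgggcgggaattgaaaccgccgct
BLM: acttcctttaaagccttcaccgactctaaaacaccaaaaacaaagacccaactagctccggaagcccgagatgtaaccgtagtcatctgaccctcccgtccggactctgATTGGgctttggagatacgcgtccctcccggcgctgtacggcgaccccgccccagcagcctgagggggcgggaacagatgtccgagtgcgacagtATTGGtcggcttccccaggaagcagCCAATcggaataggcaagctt
POLQ: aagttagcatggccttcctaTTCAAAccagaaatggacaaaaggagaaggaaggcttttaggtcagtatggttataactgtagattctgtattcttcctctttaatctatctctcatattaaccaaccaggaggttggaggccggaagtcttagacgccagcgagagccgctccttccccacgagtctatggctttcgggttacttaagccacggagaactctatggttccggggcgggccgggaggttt

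The difference between the drugs was larger in OVSAHO than in KURAMOCHI for most of the genes. The test of that difference, the OVSAHO contrast minus the KURAMOCHI contrast, passed an adjusted p of 0.05 for 22 of the 41 members, against 27.4% of all genes in either direction. For 21 of these the difference was more negative in OVSAHO, and for RAD51D it was more negative in KURAMOCHI, a sign that turned, to -0.13, with the median over its 3 probes. The count was 13 without a filter on dim probes. In that setting 1850 of 58162 probes passed as more negative in OVSAHO and 2082 as more positive. With the filter the probes that passed were 3939 and 3783 of 33754. The median over the members was -0.36, and that over all genes was -0.01. At 2-fold, 5 members passed on the lower side, against 3.3% of all genes. They were RAD54L at -1.44 (SE 0.09, adjusted p = 0.000699), BRCA2 at -1.41 (SE 0.16, adjusted p = 0.00374), EME1 at -1.17 (SE 0.11, adjusted p = 0.00181), BLM at -1.15 (SE 0.13, adjusted p = 0.00345) and RAD51AP1 at -1.15 (SE 0.14, adjusted p = 0.00421). The value of BRCA2 rests on arrays at background, and it changed sign to 0.20 after normexp. For the other 4 genes the OVSAHO arrays with simvastatin were the lowest of the 8, and the levels with L-778123 differed little between the lines for RAD54L, BLM and RAD51AP1.

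Over the 41 members the differences between the drugs in the 2 lines followed each other (Pearson r 0.845, Spearman rho 0.843), against 0.468 and 0.502 over all 16956 genes. These are descriptions across genes, which are not independent replicates and were measured on the same slide. MND1, BARD1 and CHEK1, called in both lines, had differences between the lines of -0.35, -0.19 and -0.15 that did not pass the test, with intervals of -0.64 to -0.07, -0.46 to 0.09 and -0.35 to 0.06. BRCA1 had a difference between the lines of -0.51 (SE 0.11, adjusted p = 0.0235), which ranged from -0.58 to -0.44 when each array was left out in turn, and passed the test without the second OVSAHO array of either drug but not without any of the other arrays. RBBP8 and CHEK2 had differences between the lines in the drug contrast of -0.91 and -0.94 (adjusted p = 0.00329 and 0.00127). That of FANCC was -0.74 (adjusted p = 0.0189), and it did not pass the test without a filter on dim probes, at -0.74, or without any one of the arrays other than those of OVSAHO with simvastatin, at -0.76 to -0.72. Its second probe gave -0.29 (adjusted p = 0.187).

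Between the lines, averaged over both drugs, 6 members were called higher in OVSAHO and 5 lower, against 18.3% and 16.4% of all genes. The median over the members was -0.45, and that over all genes was 0.03. The 6 higher in OVSAHO were RAD51D, RBBP8, FANCG, RAD50, RAD51C and MND1, and the 5 lower were RAD54B, BRCA2, BARD1, FANCM and NBN. MND1 lost its call at 0.97 without the first OVSAHO array with L-778123 and at 0.98 without the second KURAMOCHI array with simvastatin, and MND1 and RAD51C lost theirs after normexp, at 0.99 and 0.96. Of the fibroblast markers, only COL1A1 and COL3A1 were detected by line, on the 4 KURAMOCHI arrays and on no OVSAHO array. Each other marker of that list was detected on as many arrays of one line as of the other. Summed over the whole list, the signal reached 0.0826 to 0.108 times the 75th percentile on the OVSAHO arrays. On the KURAMOCHI arrays the sum reached 2.42 to 3.26 times that percentile. The part of these markers in the line difference was not tested. RAD51D levels were -0.42 and -0.46 on the OVSAHO arrays with simvastatin, -0.20 and -0.24 on those with L-778123, -2.96 and -2.90 on the KURAMOCHI arrays with simvastatin and -2.26 and -2.39 on those with L-778123. RAD51D was thus 4.91-fold higher in OVSAHO, a log2 difference of 2.30 (SE 0.05, adjusted p = 3.32e-07), and its other probes gave 2.49 and 1.04. RBBP8 levels were 2.75 and 2.83 on the OVSAHO arrays with simvastatin, 3.75 and 3.64 on those with L-778123, 1.47 and 1.38 on the KURAMOCHI arrays with simvastatin and 1.41 and 1.45 on those with L-778123. The difference of RBBP8 was 1.82 (SE 0.05, adjusted p = 8.34e-07), and every OVSAHO array lay above every KURAMOCHI array for both genes.

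FANCG levels were 4.31 and 4.28 on the OVSAHO arrays with simvastatin, 4.68 and 4.75 on those with L-778123, 2.87 and 2.90 on the KURAMOCHI arrays with simvastatin and 3.45 and 3.37 on those with L-778123. FANCG, which binds FANCA in the core complex, was higher in OVSAHO, by 1.35 (SE 0.04, adjusted p = 1.29e-06). RAD50 levels were 3.07 and 3.12 on the OVSAHO arrays with simvastatin, 3.10 and 3.05 on those with L-778123, 2.02 and 2.00 on the KURAMOCHI arrays with simvastatin and 1.93 and 1.85 on those with L-778123. RAD50 was higher by 1.13 (SE 0.04, adjusted p = 2.29e-06), and every OVSAHO array lay above every KURAMOCHI array. NBN levels were 0.60 and 0.66 on the OVSAHO arrays with simvastatin, 1.04 and 0.86 on those with L-778123, 1.91 and 1.82 on the KURAMOCHI arrays with simvastatin and 1.81 and 1.88 on those with L-778123. NBN, whose protein joins RAD50 and MRE11 in the same complex, was lower in OVSAHO, at -1.07 (SE 0.06, adjusted p = 1.09e-05). MRE11 differed by -0.34 (adjusted p = 0.00106), so that 1 of the 3 subunits was higher and 2 were lower in OVSAHO. RAD51C was higher in OVSAHO by 1.03 (SE 0.04, adjusted p = 2.77e-06).

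RAD54B was lower in OVSAHO than in KURAMOCHI by a fitted difference of -2.28 (SE 0.05, adjusted p = 3.03e-07), or 4.86-fold, and its second probe gave -3.54. BARD1 was lower in OVSAHO, at -1.60 (SE 0.05, adjusted p = 1.85e-06), and FANCM at -1.10 (SE 0.04, adjusted p = 2.71e-06). BRCA2 was lower in OVSAHO, at -2.18 (SE 0.08, adjusted p = 2.42e-06) as fitted, with -1.48 on the arrays with L-778123 (SE 0.11, adjusted p = 8.12e-05), where both lines were above background. With simvastatin, and the dim OVSAHO arrays set at the same lowest signal as above, BRCA2 was 4.42-fold lower in OVSAHO than in KURAMOCHI. After normexp the average over both drugs was -0.78.

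The line difference of the members depended on the drug. With simvastatin, 14 members were called lower in OVSAHO and 5 higher, against 17.3% and 18.9% of all genes, and the median was -0.82. With L-778123, 3 were called lower and 8 higher, against 16.3% and 17.9%, and the median was -0.10. The test of whether the 2 line differences differ is the same as that between the drug contrasts above. RAD54L differed between the lines by -1.54 with simvastatin and -0.10 with L-778123, BLM by -1.23 and -0.07, and POLQ by -0.78 and 0.03. These 3 genes lay close together in the 2 lines with L-778123 and apart with simvastatin. RAD54B, BARD1, BRCA2, FANCG, RAD50, RBBP8 and RAD51D were called in the same direction with either drug.

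**Figure D3:**
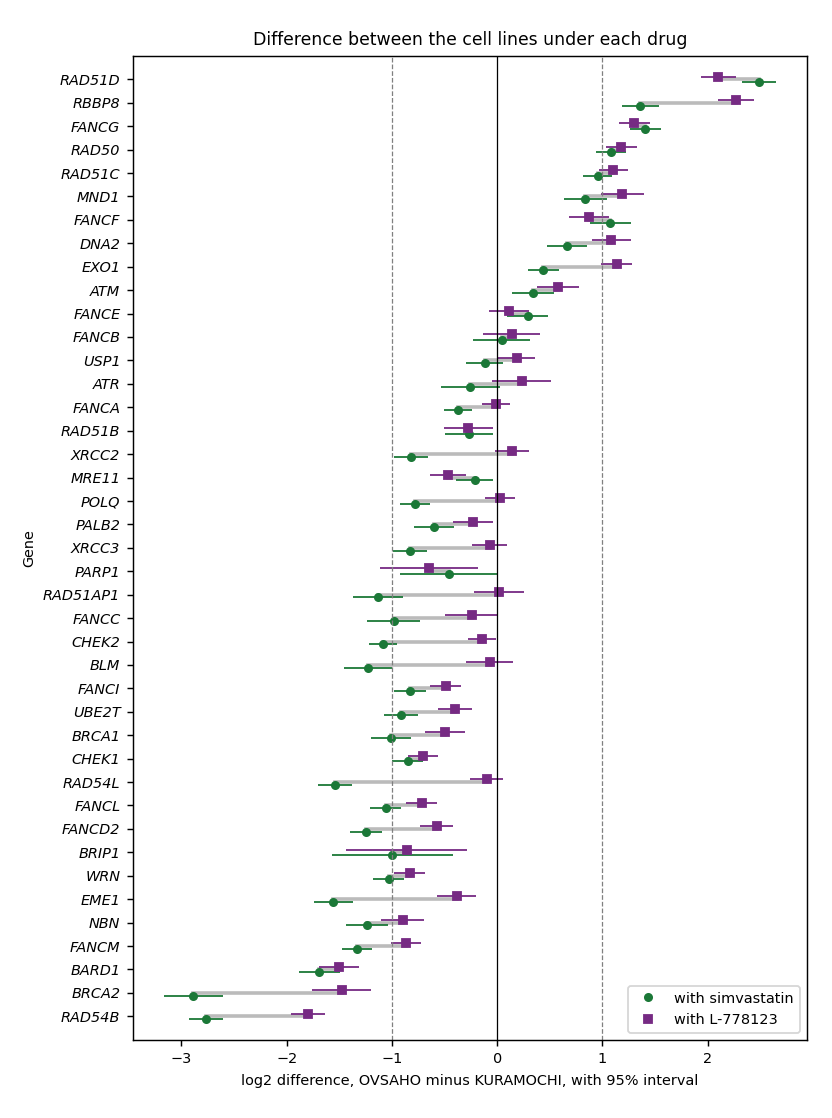
Difference between the cell lines for each member (log2, OVSAHO minus KURAMOCHI) with simvastatin (circles) and with L-778123 (squares), with 95% intervals from the limma fit, ordered by the average over both drugs. Dashed lines mark 2-fold, and a grey line joins the values of a gene. RAD54L moves from -0.10 with L-778123 to -1.54 with simvastatin, while RAD50 stays near 1.18 and 1.08.

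The other genes of DNA repair were taken from lists drawn up by pathway. Of 49 other genes of homologous recombination and the Fanconi pathway, 10 (20.4%) were called lower in OVSAHO and none in KURAMOCHI, and none was called higher. Of the members, 53.7% were called lower in OVSAHO and 26.8% in KURAMOCHI. Of all genes, 5.88% and 2.94% were, which are also the shares to set beside the lists that follow. Their medians were -0.34 and -0.14. In OVSAHO the largest changes were those of MCM8, a helicase of recombination, at -1.56, GEN1, a nuclease that cuts joined molecules, at -1.54 and MMS22L, which loads the recombinase at stalled forks, at -1.47. In KURAMOCHI they were MMS22L at -0.98, PSMC3IP, the partner of MND1, at -0.95 and FIGNL1 at -0.87. Of 20 other checkpoint and damage signalling genes, 4 were called lower in OVSAHO, CLSPN, CDC25A, TIPIN and TIMELESS, and 2 in KURAMOCHI, CLSPN and CDC25A. CLSPN, which carries the signal from ATR to CHEK1, differed by -2.58 and -1.66, and CDC25A, the phosphatase that CHEK1 acts on, by -2.12 and -1.21. TIMELESS differed by -0.87 in KURAMOCHI, and ETAA1 had the value 1.44 in OVSAHO, which did not pass the test (adjusted p = 0.245). The medians of this list were -0.21 and -0.21.

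Non-homologous end joining, which rejoins ends without a template, had no gene of 10 called in either line, with medians of -0.10 and -0.15. Its largest values were PRKDC, the kinase that binds the ends, at -0.93 and -0.53, NHEJ1 at 0.82 in OVSAHO and POLM at 0.56 in KURAMOCHI. XRCC5 differed by -0.53 and -0.38. Mismatch repair also had no gene of 7 called, with medians of -0.46 and -0.18. By the adjusted p alone, 5 of its genes were lower in OVSAHO and 3 in KURAMOCHI. One of these in both lines was MSH6, which recognises the mismatch, at -0.52 and -0.30. Of 19 genes of base excision and strand break repair, NEIL3 and FEN1 were called lower and NEIL1 higher in OVSAHO, and NEIL3 lower in KURAMOCHI, with medians of -0.12 and -0.01. NEIL3 and NEIL1, glycosylases that cut out oxidised bases, differed by -2.18 and 1.36 in OVSAHO and by -1.64 and 0.87 in KURAMOCHI. FEN1, the flap nuclease of replication, differed by -1.59 and -0.69. Of 18 genes of nucleotide excision repair, ERCC8 was called lower in OVSAHO, at -1.01, and none was called in KURAMOCHI, with medians of -0.11 and -0.02. The next largest were GTF2H3 and GTF2H5 at -0.66 and -0.60 in OVSAHO, and ERCC8, ERCC5 and GTF2H5 at -0.67, 0.59 and -0.47 in KURAMOCHI.

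Markers of proliferating cells moved with the members. Of 14 such markers, none of them a member, 12 were called lower with simvastatin in OVSAHO and 7 in KURAMOCHI. The shares of all genes were 5.88% and 2.94%. The medians of the markers were -1.29 and -0.99. RRM2, which makes the building blocks of DNA, differed by -2.65 and -1.76, TYMS by -1.68 and -1.50, CCNA2 by -1.51 in OVSAHO and CDK1 by -1.17 in KURAMOCHI. All 14 were well above background on all 8 arrays. Their summed level, in multiples of the 75th percentile of the array, was 199 to 200 in OVSAHO with simvastatin, 417 to 422 in OVSAHO with L-778123, 185 in KURAMOCHI with simvastatin and 290 to 306 in KURAMOCHI with L-778123. The sum was thus lower with simvastatin in both lines, without overlap of the arrays. The difference between the lines in the drug contrast had a median of -0.33 over these markers, of which 5 passed an adjusted p of 0.05 with a larger fall in OVSAHO and none at 2-fold. The part of proliferation in the differences of the members was not tested.

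**Figure D4:**
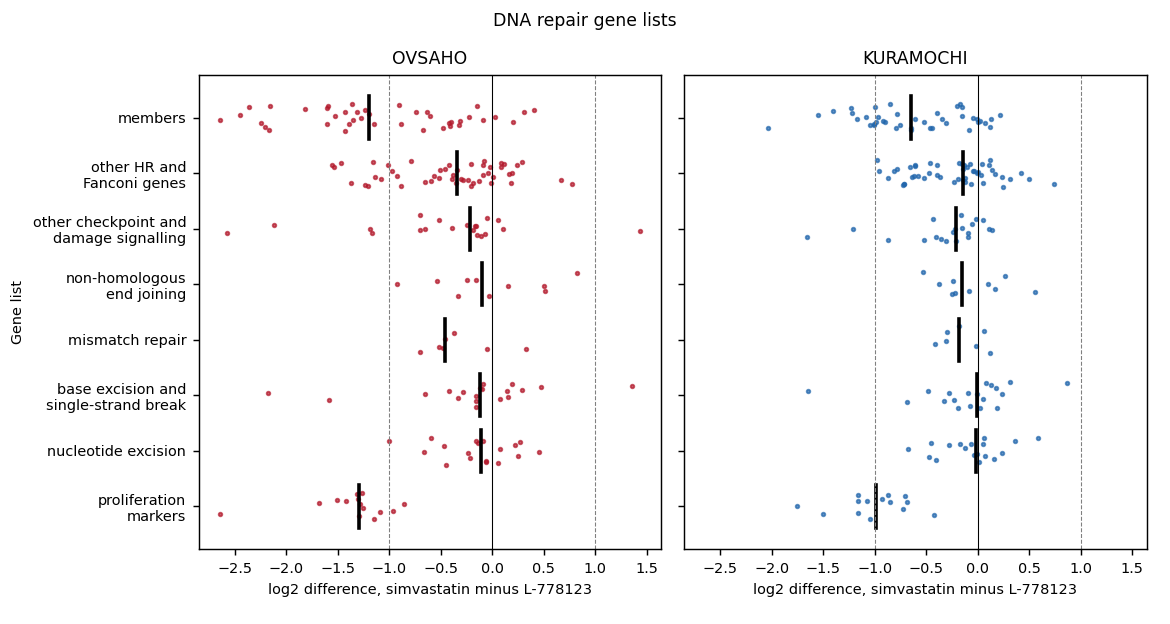
Difference between simvastatin and L-778123 (log2) for the genes of each DNA repair list and for the proliferation markers, in OVSAHO (left) and KURAMOCHI (right). Each point is a gene, spread vertically at random within its row, the black bar is the median of the list, and dashed lines mark 2-fold. The medians of the 41 members, -1.20 and -0.64, lie between those of the proliferation markers, -1.29 and -0.99, and those of the other repair lists.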

How the data were processed

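OVSAHO and KURAMOCHI are established cell lines. Their RNA was hybridized to one-color Agilent arrays, and groups follow the sample labels. The authors deposited each spot's background-corrected intensity from Feature Extraction 11.5.1.1 (per the submitters' processing notes), not normalized between arrays, and a quantile normalized intensity table, used as an alternative. Control spots and 58 to 99 outlier spots per array were left out. The log2 of the deposited intensity was centered on each array's 75th percentile (324 to 437). The filter kept 33754 of 58162 probes, those called well above background by the scanner software in a whole group or more. RefSeq accessions named 24768 of 50069 identifiers, and probe positions were not used. A gene took its brightest probe; 12 members had several. limma 3.58.1 (R 4.3.3) fitted 4 group means with Benjamini-Hochberg adjustment over all probes (5.72 degrees of freedom). On simulated data for the OVSAHO contrast, only 200 of 33754 probes were changed, by 1.5 on the log2 scale. limma recovered 80.5% of them, with 2 false calls. In the real contrast 2089 probes were called lower and 1612 higher, so these rates need not carry over. Alternatives covered the filter, normalization, background correction, probe choice, fold threshold, replicate block, the analysis of variance of the methods and each array left out. Members and lists were chosen with earlier results of these data known. Named with values on every array were the 5 largest differences per comparison and direction, differences between the lines of at least 1 on the log2 scale, and 8 genes set by name, with others by role; of the other lists, the 3 largest changes in each line were named, except for items that are not reported here. Precision is limited by 2 arrays per group.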

Additional observations from a re-analysis of the deposited data

Results flagged for a closer look

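For 22 of the 41 members the drug contrast differed between the lines by the interaction test of limma at an adjusted p below 0.05. Values are the log2 difference between simvastatin and L-778123 in OVSAHO minus that in KURAMOCHI. Among the genes of BRCA1 and BRCA2 and of the recombinase paralogs these were BRCA1 at -0.51, BRCA2 at -1.41, XRCC2 at -0.96, XRCC3 at -0.76 and RAD51D at 0.39, the only positive value. Among the strand exchange genes they were RAD51AP1 at -1.15, RAD54L at -1.44 and RAD54B at -0.97. In the Fanconi pathway they were FANCA at -0.36, FANCC at -0.74, FANCL at -0.34, FANCM at -0.47, UBE2T at -0.51, FANCD2 at -0.67 and FANCI at -0.34. The genes of resection, resolution, checkpoint and end joining were RBBP8 at -0.91, EXO1 at -0.70, DNA2 at -0.42, BLM at -1.15, EME1 at -1.17, CHEK2 at -0.94 and POLQ at -0.81. Of all genes, 27.4% passed this test in either direction.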

How the results depend on the processing

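With no fold threshold, 35 members were lower and 1 was higher with simvastatin in OVSAHO, and 28 were lower in KURAMOCHI. Of all genes, 27.5% were lower in OVSAHO and 18.4% in KURAMOCHI. Between the lines, 11 members were higher and 27 lower in OVSAHO than in KURAMOCHI, against 13579 and 12639 of all 33754 probes. At 1.5-fold, 22 members were lower in KURAMOCHI and 18 lower in OVSAHO than in KURAMOCHI. The share of all genes at 1.5-fold was not worked out. After normexp, 6 members were called lower in KURAMOCHI, as were 267 of all 16956 genes. The medians of the members after normexp were -0.82 in OVSAHO, -0.49 in KURAMOCHI and -0.37 between the lines. With only probes above background on all arrays the medians were -1.15, -0.61 and -0.41, and with each gene's probes summarised by their median they were -1.15 in OVSAHO and -0.41 between the lines. Without a filter on dim probes, 13 members differed between the lines in the drug contrast. Of 58162 probes in that setting, 1850 were more negative and 2082 more positive in OVSAHO, against 3939 and 3783 of 33754 with the filter. The values that reversed were those of BRCA2 and RAD51D for the drug contrast in OVSAHO minus that in KURAMOCHI, 0.20 for BRCA2 after normexp and -0.13 for RAD51D as the median over its probes. The offset of normexp draws dim probes together by construction. The cause of the other changes was not tested.

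Leaving out each array in turn gave 22 to 23 members lower in OVSAHO, 8 to 12 lower in KURAMOCHI, none higher in either, 14 to 17 that differed between the lines in the drug contrast, 5 to 7 higher and 5 to 6 lower in OVSAHO than in KURAMOCHI. The medians ranged from -1.26 to -1.15 in OVSAHO, from -0.67 to -0.59 in KURAMOCHI, from -0.43 to -0.35 for the difference and from -0.48 to -0.42 between the lines. The lowest count of members that differed, 14, was reached without either KURAMOCHI simvastatin array, and every array left out lowered it from 22. Where a group then held 1 array, it was assumed to vary like the others.

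Between the groups, the deviations of arrays with the same number correlated at 0.0008 to 0.056. No strong shift shared by array number was seen, but this cannot show whether the numbers pair cultures. With the replicate block, 22 members were lower in OVSAHO, 11 lower in KURAMOCHI, 18 differed between the lines in the drug contrast, and 6 were higher and 5 lower in OVSAHO than in KURAMOCHI. Over all alternatives other than the fold threshold, 35 of 41 members kept their call in OVSAHO, 34 in KURAMOCHI, 26 for the difference and 34 between the lines. In KURAMOCHI, RAD54L, BLM and CHEK1 lay at the 2-fold threshold and lost the call in several alternatives. The dim signal of BRCA2 and BRIP1 limits their values.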
